A study of Mus musculus with 5 samples.

Results

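Twist1, Twist2, Snai1, Snai2, Zeb1 and Zeb2 encode transcription factors that drive the change of epithelial or endothelial cells into migrating mesenchyme. The 6 genes were taken by name from an expression table of 14697 transcripts, in which each had 1 transcript. The table compares the atrioventricular canal (AVC) of C57BL/6 mouse embryos at embryonic day 12.5 between controls and embryos that lack Sox9 in cells of endothelial origin. The controls, called WT in the labels, carried floxed Sox9 alleles and no Cre (Sox9fl/fl:+/+), and the mutants carried the same alleles with 1 copy of Tie2-Cre (Sox9fl/fl:Tie2-Cre/+, Sox9 cKO). Tie2-Cre recombines in endothelium, in the cushion mesenchyme that comes from it and in blood lineages, while the dissected AVC also holds myocardium and epicardium that keep Sox9 alleles intact. Dissected AVCs of several embryos were pooled, and 2 libraries were made per genotype. The authors deposited 1 merged value per genotype, so each genotype has n = 1, the spread between libraries is unknown, and no p-value is given. Genes are compared by size of difference alone.

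In the AVC, endocardial cells lose their junctions, enter the extracellular matrix and become the cushion mesenchyme from which the valves form. Proteins of the Snail family (Snai1, Snai2) and the Zeb family (Zeb1, Zeb2) are zinc finger repressors that bind E-boxes with the letters CAGGTG and shut down junction genes. Twist1 and Twist2 are basic helix-loop-helix proteins that pair with E proteins, and Twist1 is known for keeping cushion cells proliferative and matrix-producing after they have become mesenchyme. BMP, TGF-beta and Notch signals act upstream of these factors.

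Levels are given in nFPKM, the authors' normalized fragments per kilobase of transcript, a unit that allows for transcript length and so lets genes be compared with each other. The relative log2 ratio is log2((cKO + 1)/(WT + 1)) minus its median over the 13793 transcripts that reached 1 nFPKM in WT, in cKO or in both. That median was -0.11 before it was subtracted. A transcript was called different when its relative log2 ratio was at least 1 in size, a 2-fold difference on this scale. By this rule 93 transcripts (0.674%) were lower in cKO and 115 (0.834%) were higher. Without the centring these numbers were 135 (0.979%) and 82 (0.595%). In the authors' deposited table, 165 of the same transcripts (1.2%) were at least 2-fold lower in cKO and 145 (1.05%) higher. The middle 90% of all relative log2 ratios ran from -0.45 to 0.49.

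Sox9, the deleted gene, stood at 36.7 nFPKM in WT and 14.7 nFPKM in cKO, a relative log2 ratio of -1.16. The remaining level cannot be divided between cells that escaped deletion and cells in which Tie2-Cre is not active. All 16 listed valve mesenchyme, 16 endothelial and 14 cardiomyocyte markers reached 1 nFPKM. So did 13793 of all 14697 transcripts, so this says little about which cell types were present.

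All 6 transition factors passed the filter on low values, and they separated into those that were lower in cKO and those near the level of the controls. Twist1 was 2.71-fold lower in nFPKM, and it was the only member past the 2-fold rule, which makes 1 of 6 in the lower direction against 0.674% of all transcripts and 0 of 6 in the higher against 0.834%. Snai1 and Snai2 were lower by smaller amounts, Zeb2 stood close to the median transcript, and Zeb1 was slightly above it. Twist2 is placed in neither group. Its level was low, and its relative log2 ratio was -0.21 with the pseudocount of 1 and -0.39 with a pseudocount of 0.1. The median relative log2 ratio of the 6 genes was -0.37, where that of all transcripts is 0 by construction, and 5 of 6 were below 0.

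**Figure D1:**
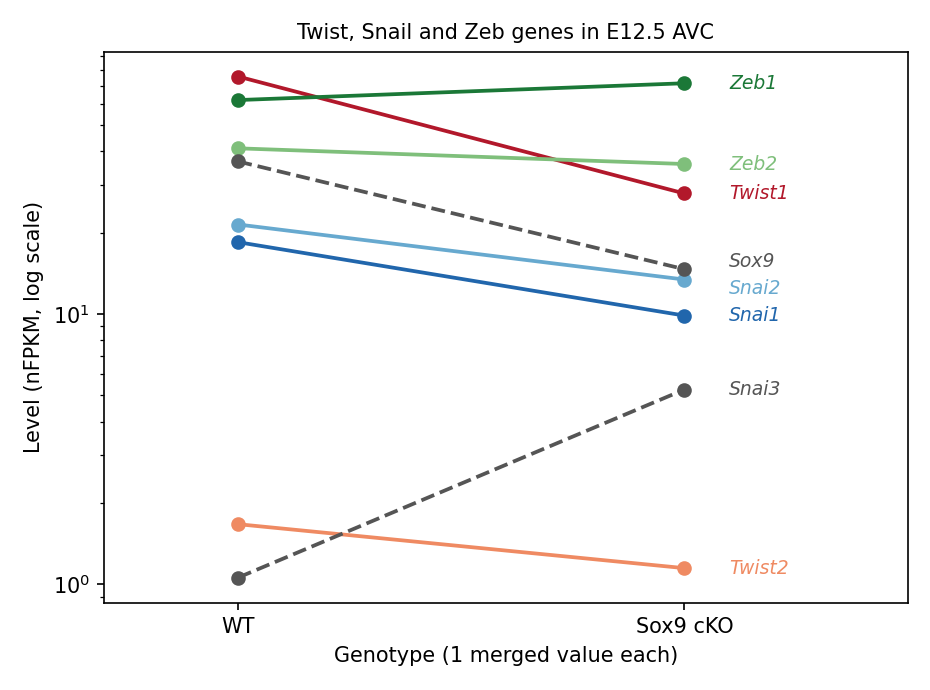
Levels of the 6 transition factors (solid lines) and of Sox9 and Snai3 (dashed lines) in WT and Sox9 cKO AVC, in nFPKM on a log scale, with 1 merged value per genotype and no error bars. Twist1 goes from the highest of the 6 in WT (75.7 nFPKM) to the third place in cKO (27.9 nFPKM), below Zeb1 and Zeb2.

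Twist1 (NM_011658, chromosome 12) stood at 75.7 nFPKM in WT and 27.9 nFPKM in cKO. The cKO level was 36.9% of the WT level, a relative log2 ratio of -1.30, and the authors' deposited table gives a log2 fold change of -1.31. Of the other transcripts that passed the filter, 40 had a lower ratio. Among 4032 transcripts whose higher value lay within 2-fold of that of Twist1, 5 had a lower ratio, and the middle 90% of that group ran from -0.30 to 0.39. In WT, 84.5% of transcripts stood below Twist1 in level, against 59.8% in cKO. The levels of Twist1 and Sox9 were lower by about the same factor. There were 2.06 units of Twist1 per unit of Sox9 in WT and 1.91 in cKO, a ratio within each genotype that no scaling between genotypes can alter.

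Twist2 (NM_007855, chromosome 1), the close relative of Twist1 best known from dermis, was little expressed. It stood at 1.67 nFPKM in WT and 1.15 nFPKM in cKO, a relative log2 ratio of -0.21. At this low level the middle 90% of 1796 transcripts of similar level ran from -0.67 to 0.71, so the value lies well inside their scatter. Twist1 was 45.4 times as abundant as Twist2 in WT and 24.4 times as abundant in cKO, and Twist2 showed no higher level beside the lower Twist1.

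Snai1 (NM_011427, chromosome 2), a direct repressor of cadherin genes, stood at 18.4 nFPKM in WT and 9.87 nFPKM in cKO. Its relative log2 ratio was -0.73, and 1.58% of 5076 transcripts of similar level had a lower one. Snai2 (NM_011415, chromosome 16), also called Slug, which takes part in the first steps of the transition in the cushions, stood at 21.4 nFPKM in WT and 13.4 nFPKM in cKO. Its relative log2 ratio was -0.53, and 2.54% of 5347 transcripts of similar level had a lower one. Both lie below the middle 90% of transcripts of their level, and neither met the 2-fold rule. The WT levels of Snai1 and Snai2 are close to each other, and with 1 value each their order is not established.

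Zeb1 (NM_011546, chromosome 18) stood at 62.0 nFPKM in WT and 71.5 nFPKM in cKO, a relative log2 ratio of 0.31. It was the member with the highest ratio, and 92.2% of 4214 transcripts of similar level had a lower one, a place inside their middle 90%. Zeb2 (NM_001289521, chromosome 2), which was first found as a partner of SMAD proteins, stood at 41.1 nFPKM in WT and 35.9 nFPKM in cKO. Its relative log2 ratio of -0.08 was near that of the median transcript. The table used here holds 1 transcript each for Zeb1 and Zeb2, and other isoforms were not analysed here.

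**Figure D2:**
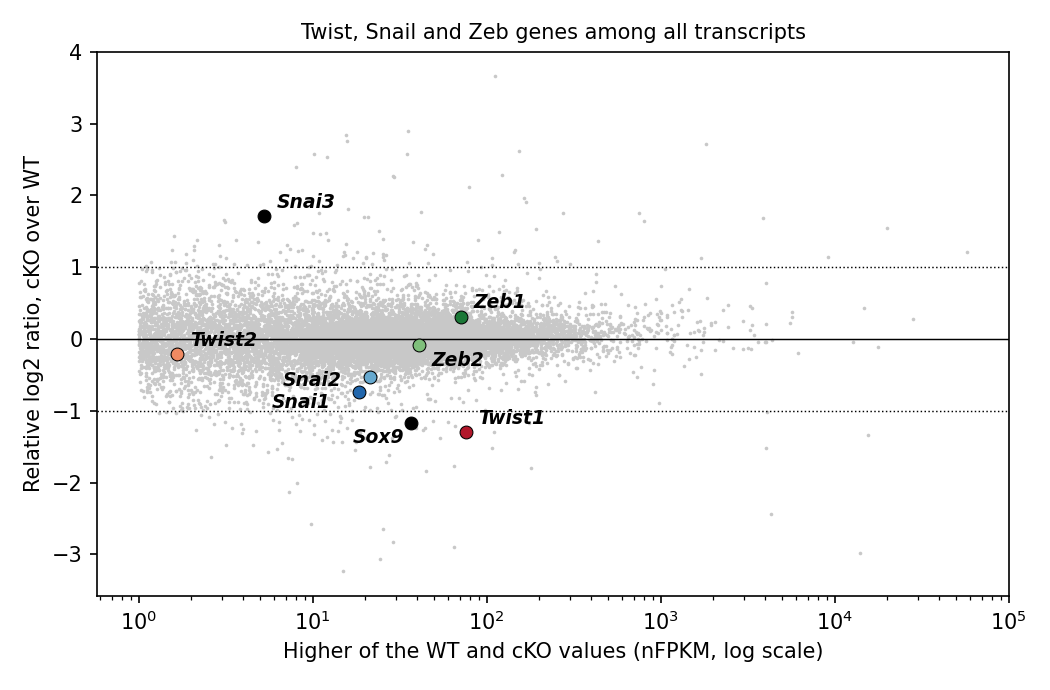
Relative log2 ratio of cKO over WT for each transcript that passed the filter (grey) against the higher of both values in nFPKM on a log scale, with the 6 factors, Sox9 and Snai3 marked and dotted lines at the 2-fold rule. Twist1 (-1.30) and Sox9 (-1.16) lie below the lower line, Snai1 and Snai2 lie between it and 0, and Snai3 (1.71) lies above the upper line.

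The makeup of the 6 factors differed between the genotypes. Their summed level was 220.3 nFPKM in WT and 159.8 nFPKM in cKO. Twist1 made up 34.4% of the sum in WT and 17.5% in cKO. The Zeb pair made up 46.8% in WT and 67.2% in cKO, while its own sum was similar, at 103.0 and 107.4 nFPKM. The Snail pair went from 18.1% to 14.6%. The order in WT was Twist1, Zeb1, Zeb2, Snai2, Snai1 and Twist2, and in cKO it was Zeb1, Zeb2, Twist1, Snai2, Snai1 and Twist2. Twist1 stood at 1.22 units per unit of Zeb1 in WT and at 0.391 in cKO, a 3.13-fold difference. The same comparison against Zeb1 gave a 2.16-fold difference for Snai1 and a 1.84-fold difference for Snai2. These are ratios within a genotype, so they show unequal change among the 6 genes and do not depend on the centring.

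**Figure D3:**
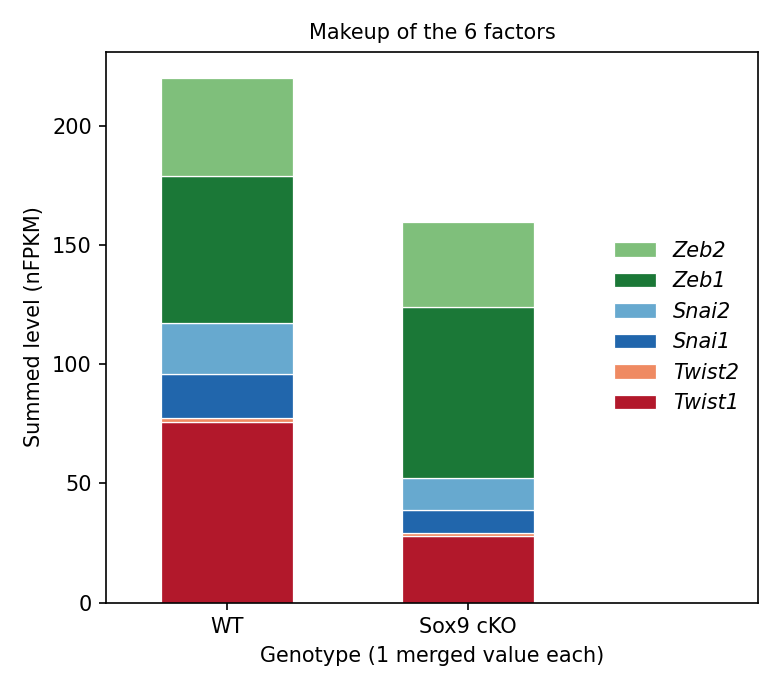
Stacked levels of the 6 factors in nFPKM in WT and Sox9 cKO AVC, 1 merged value per genotype. The sum is 220.3 nFPKM in WT and 159.8 nFPKM in cKO, and most of the difference is the Twist1 block.

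Sequence before the start of Twist1 and Snai1, the members with the lowest ratios, is shown so that the letters bound by SOX proteins and by Snail and Zeb repressors can be seen in place. Windows of 250 bases before each annotated start were read on the coding strand from RefSeq (GRCm38.p6), 4 of the 6 members had an entry, and both strands were searched. The Twist1 window is chr12:33957421-33957670 (+), and the capitals mark ATTGTT, the reverse complement of AACAAT, a core of SOX binding, found 190 to 185 bases before the start. The Snai1 window is chr2:167537945-167538194 (+), and the capitals mark CACCTG, the reverse complement of CAGGTG, found 126 to 121 bases before the start.
Twist1: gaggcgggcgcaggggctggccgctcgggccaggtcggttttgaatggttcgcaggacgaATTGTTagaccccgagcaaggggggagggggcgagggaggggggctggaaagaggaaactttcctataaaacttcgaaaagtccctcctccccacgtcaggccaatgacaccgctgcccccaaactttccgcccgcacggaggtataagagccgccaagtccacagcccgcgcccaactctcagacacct
Snai1: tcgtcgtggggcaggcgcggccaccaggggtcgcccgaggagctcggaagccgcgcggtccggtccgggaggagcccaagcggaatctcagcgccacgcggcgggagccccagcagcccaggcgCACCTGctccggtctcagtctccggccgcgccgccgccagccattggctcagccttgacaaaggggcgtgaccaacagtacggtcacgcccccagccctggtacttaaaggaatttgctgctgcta
Of all 32851 windows of this length, 9.42% held AACAAT and 17.2% held CAGGTG on either strand. Neither the Twist2 window nor any of the Zeb2 windows held either motif. Another SOX core, ACAATG, was also searched on both strands. It stood before 0 of the 4 members with an entry, Twist1 included, against 10.7% of all windows. A match is a run of letters and no measured site. The deposited SOX9 peaks are on the older build mm9 and were not placed relative to these genes.

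Relatives of the members differed in both directions. Of 9 listed relatives 6 passed the filter, 1 was at least 2-fold lower (against 0.674% of all transcripts) and 1 at least 2-fold higher (against 0.834%), and their median relative log2 ratio was -0.47. Snai3, the third Snail family gene, stood at 1.06 nFPKM in WT and 5.25 nFPKM in cKO. Its relative log2 ratio was 1.71, and 2 of 2437 transcripts of similar level had a higher one. With a pseudocount of 5 in place of 1, the ratio of this low gene was 0.84 and no longer met the rule. Snai3 went the opposite way from Snai1 and Snai2, and stood at 0.0574 units per unit of Snai1 in WT and 0.532 in cKO. Among the basic helix-loop-helix relatives, Scx, which marks cells that form tendons and valve cords, had levels of 11.3 and 3.29 nFPKM (relative log2 ratio -1.41). Tcf15, a factor of the somites, stood at 5.54 and 2.25 nFPKM (-0.90). Hand2, a heart factor that can pair with Twist1, stood at 94.1 and 59.7 nFPKM (-0.54). Tcf21, a factor of the epicardium and its descendants, stood at 65.1 and 45.5 nFPKM (-0.40).

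The partners of Twist1 were nearer to the control level than their inhibitors. The E proteins Tcf3 and Tcf12, with which Twist1 forms dimers, had relative log2 ratios of -0.24 and -0.22, and Tcf4 had 0.06; these 3 are given for completeness and not by the naming rule. The Id proteins bind E proteins and keep them from DNA. All of them stood lower, with relative log2 ratios of -0.76 for Id4 (11.1 and 5.68 nFPKM), -0.58 for Id2 (281 and 175 nFPKM), -0.51 for Id1 (74.0 and 48.0 nFPKM) and -0.50 for Id3 (260 and 170 nFPKM). The median of the 7 genes was -0.50, and none met the 2-fold rule.

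As a list, cofactors of the Snail and Zeb repressors had a median close to that of all transcripts. The 13 listed corepressors, which include the CtBP proteins used by Zeb factors and the LIM proteins used by Snail factors, had a median relative log2 ratio of -0.04, and none met the rule. The lowest were Limd1 (59.2 and 43.9 nFPKM, -0.32) and the corepressor Ctbp1 (173 and 134 nFPKM, -0.26), and the highest was the histone deacetylase Hdac1 (16.0 and 16.9 nFPKM, 0.18). The 9 genes that control the stability of Snail proteins had a median of -0.07. Axin2, a Wnt target that scaffolds the kinase Gsk3b, stood at 17.4 and 11.03 nFPKM (-0.50), while Gsk3b itself, which marks Snai1 protein for breakdown, stood at 61.3 and 57.9 nFPKM (0.02). RNA levels do not show how much Snail protein was present.

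The upstream signals of the cushion transition had a median relative log2 ratio of 0.10 over 25 genes, and none met the rule. Bmp2, the myocardial ligand that starts the transition, stood at 37.8 nFPKM in WT and 22.1 nFPKM in cKO (-0.64). Erbb3, a receptor in cushion mesenchyme that is also among the listed neural crest and glial markers, stood at 11.9 and 6.45 nFPKM (-0.68). In the other direction, the TGF-beta co-receptor Tgfbr3 stood at 38.7 and 58.0 nFPKM (0.68) and the Notch target Hey2 at 85.9 and 120.5 nFPKM (0.59). Ctnnb1, the most abundant of the list, stood at 701 and 612 nFPKM (-0.09).

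Junction and epithelial genes, the class that Snail and Zeb factors repress, mostly stood above the median transcript in cKO. Of 18 listed genes with values, 13 were above 0 and 5 below without the filter on low values, and the median relative log2 ratio was 0.18. The filter kept 15 of them, with a median of 0.21. Krt19, a keratin, met the 2-fold rule, at 52.0 nFPKM in WT and 107.0 nFPKM in cKO (1.13). The tight junction gene Ocln stood at 1.53 and 2.98 nFPKM (0.76). The claudin gene Cldn3 stood at 0.705 and 1.78 nFPKM (0.81), and since it passed the filter through its cKO value alone, it could only lie on the higher side. Cdh5, the endothelial cadherin, stood at 145 and 178 nFPKM (0.39). Cldn5, the endothelial claudin, went the other way, at 15.7 and 9.28 nFPKM (-0.59). Dsp, a desmosome gene of the myocardium and the most abundant of the list, stood at 289 and 296 nFPKM (0.14). Krt19, Cdh5 and Cldn5 also belong to the epicardial or endothelial markers. Without all listed cell type markers, the median of the 12 remaining genes was 0.20, close to the 0.18 of the 14 mesenchymal and motility genes left by the same step. Cdh1, which encodes the E-cadherin that these factors classically repress, was among the 9 of 27 listed genes without values, so its level is not known.

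The letters CAGGTG or CACCTG stood before the start of 10 of the 17 junction genes with a RefSeq entry, against 17.2% of all windows. Some of the 17 have more than 1 window, which raises their count. The 17 include genes without values. Of the 10, Cldn4, Cldn6, Crb3 and Muc1 had no values, and Cldn7 and Epcam did not reach 1 nFPKM. Those of the 10 whose levels passed the filter are shown as stretches of 42 bases on the coding strand, to let the motif (capitals) be compared with that of Snai1. They are Krt8 at chr15:102004430-102004471 (-), Krt18 at chr15:102027984-102028025 (+), F11r at chr1:171437421-171437462 (+) and Ocln at chr13:100552543-100552584 (-). The same Ocln window held another CAGGTG, in the stretch chr13:100552688-100552729, which is not shown. The other annotated window of Ocln held none.
Krt8: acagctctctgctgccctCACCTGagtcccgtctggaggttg
Krt18: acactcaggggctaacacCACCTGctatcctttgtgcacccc
F11r: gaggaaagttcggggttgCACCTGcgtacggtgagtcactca
Ocln: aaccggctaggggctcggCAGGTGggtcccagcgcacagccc
Krt8 and Krt18, which encode partner keratins, had relative log2 ratios of 0.39 and 0.54, and F11r, a junction adhesion molecule, had 0.19. Epcam and Cldn7, which also held the letters but did not pass the filter, had -0.25 and 0.09. The other annotated window of Cldn7 held none. Genes without the letters in their windows lay on both sides of these values, such as Cldn3 (0.81) and Cldn5 (-0.59). These genes were picked after their values were seen.

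Mesenchymal and motility genes were evenly divided. The median relative log2 ratio of 22 genes was 0.01, with 11 above and 11 below 0, and it was 0.18 over the 14 genes that are no listed cell type marker. Postn (periostin) stood at 973 nFPKM in WT and 487 nFPKM in cKO (-0.89), Col3a1 at 905 and 545 nFPKM (-0.63) and the growth factor receptor Pdgfra at 130 and 79.0 nFPKM (-0.61). Vim, the intermediate filament gene of mesenchyme, stood at 1840 and 1953 nFPKM (0.19). Of 7 genes reported to be bound by Twist1 or to respond to it in valve cells, 6 passed the filter. Apart from Postn they lay inside the middle 90% of all transcripts, a range not matched for level. Tbx20 (540 and 407 nFPKM) stood at -0.30, Col2a1 at -0.09, Cdh11 at -0.03, Sema3c at 0.02 and Gadd45a at 0.28.

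**Figure D4:**
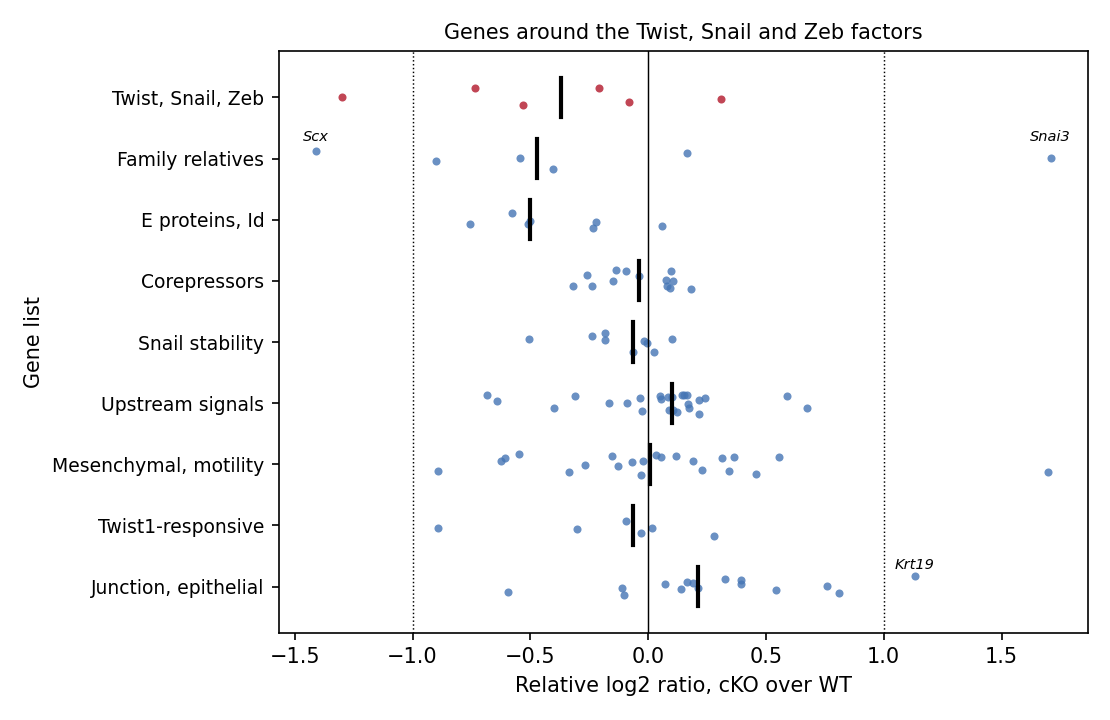
Relative log2 ratio of cKO over WT (horizontal axis) for each gene that passed the filter in the lists around the 6 factors, with black bars at list medians and dotted lines at the 2-fold rule. The Id and E protein list has a median of -0.50, the junction list 0.21 and the mesenchymal list 0.01; without listed cell type markers the last 2 are 0.20 and 0.18.

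Markers of cell types also differed between the pools, and in bulk tissue fewer cells of a type cannot be told apart from less RNA per cell. The 16 valve mesenchyme markers, which include the deleted gene Sox9, summed to 6481 nFPKM in WT and 5137 nFPKM in cKO. Of these, 13 had a relative log2 ratio below 0, Sox9 among them by design. The list median was -0.37, and that of the 6 factors was -0.37 too. With Sox9 left out, the marker median before centring was -0.44, against -0.48 for the 6 factors. Neural crest and glial markers, from a lineage that uses Snail, Twist and Zeb factors as well, summed to 43.6 and 27.0 nFPKM, and all 5 with values were below 0, with or without the filter. Sox10, a defining gene of that lineage, stood at 1.73 nFPKM in WT and 0.336 nFPKM in cKO, and it passed the filter through WT alone. Endothelial markers summed to 1306 and 1515 nFPKM with 14 of 16 above 0, epicardial markers to 312 and 398 nFPKM with 8 of 10 above 0, and erythroid markers to 35840 and 82433 nFPKM with 9 of 9 above 0. Cardiomyocyte markers summed to 50689 and 50446 nFPKM with 9 of 14 below 0, and macrophage markers to 155 and 132 nFPKM with 5 of 8 below 0. No listed marker with a value was at 0. The pools further differed in the sex-linked genes Xist (175 and 71.6 nFPKM) and Ddx3y (4.26 and 35.2 nFPKM) and in the immediate early gene Fos (5.71 and 29.1 nFPKM). The part of these differences in the values of the 6 factors was not tested.

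**Figure D5:**
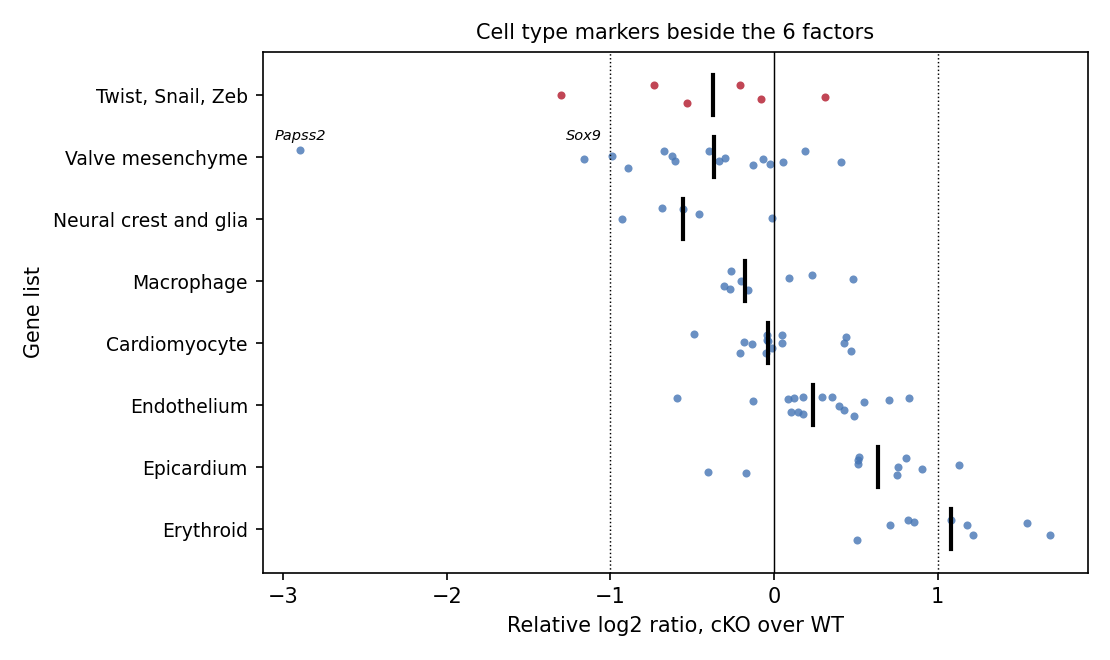
Relative log2 ratio of cKO over WT (horizontal axis) for each marker that passed the filter, by cell type, beside the 6 factors (red), with black bars at list medians and dotted lines at the 2-fold rule. The valve mesenchyme markers, Sox9 included, and the 6 factors both have a median of -0.37, and the erythroid markers have a median of 1.08.

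Set against single mesenchyme markers within each genotype, the members stood in the order of their ratios of cKO to WT. The counts restate those ratios and are no separate support for a separation of the members. Twist1 was lower in cKO relative to 14 of 15 markers, Sox9 left out, and only Papss2, a sulfation enzyme, had a lower ratio of cKO to WT. Snai1 was lower relative to 12 of 15, Snai2 and Twist2 relative to 9 of 15, Zeb2 relative to 5 of 15 and Zeb1 relative to 1 of 15. Per unit of Pdgfra, Twist1 stood at 0.582 in WT and 0.354 in cKO, Snai1 at 0.142 and 0.125, and Snai2 at 0.165 and 0.170. When ratios were centred on the median of these markers in place of all transcripts, Twist1 stood at -0.96, short of the 2-fold rule, and Zeb2 and Twist2 turned to 0.25 and 0.13.

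Genes whose pair of levels lay nearest to that of each member were found by the distance between log2(nFPKM + 1) values over the 2 samples. With 2 points per gene this describes level and ratio alone. Twist1 had no close neighbour, since Arhgef40, Cthrc1 and Fam65a lay at distances of 0.34, 0.37 and 0.38, all with smaller differences between genotypes. Cthrc1, which encodes a secreted collagen triple helix protein, stood at 69.1 nFPKM in WT and 35.8 nFPKM in cKO. Snai1 lay nearest to Pmepa1, a TGF-beta target, at 18.3 and 9.63 nFPKM (distance 0.035), then to Oraov1 and the glypican Gpc6. Snai2 lay nearest to Fbxo25, to the matrix metalloproteinase Mmp11 at 21.9 and 13.2 nFPKM (distance 0.035) and to the glypican Gpc2. Zeb1 lay nearest to Igf2bp1, Cox8b and Iars, and Zeb2 to Tbpl1, Ajuba and Syap1. Aqp11, Ccdc89 and Arhgap4 lay nearest to Twist2.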

How the data were processed

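RNA-seq of AVC at embryonic day 12.5 was used for 2 of the 5 samples of the series. The deposited table holds 1 FPKM value per transcript and genotype, normalized further by the authors (nFPKM) and merged over duplicate libraries, per the file headers; no source used here describes the further step. A log2 fold change (cKO over WT) computed by the authors stands beside these values, without a p-value. Build mm9 and the tools TopHat2, Cufflinks and edgeR, with no version, are listed in the submitters' processing notes. Counts could not be recovered, so depth is unknown and no interval is given. None of the values was 0. The filter (1 nFPKM in either genotype) removed 904 transcripts. With n = 1 there was no test.

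Members and lists were chosen with earlier results of these data known. Named genes were Sox9, all members and, from each pathway list, up to 4 genes with the largest absolute relative log2 ratio and the 2 most abundant in WT among those that passed, plus the 3 nearest genes of each member; genes named otherwise, to complete a family or a list, were picked after their values were seen. Some genes covered by this rule or these lists are left unreported. Symbols were matched to the table, and Ajuba by its accession. No source used here states whether the libraries kept strand. The 3 peak lists are on mm9 and were not used here, so the planned peak comparison was not run. Promoters came from RefSeq GRCm38.p6. Other pseudocounts, filters, centrings and the authors' own fold changes were tried as alternatives. Python 3.11.15, numpy 2.4.6, pandas 2.3.3 and matplotlib 3.10.9 were used, and the ratio and call steps were tested on simulated data.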

Additional observations from a re-analysis of the deposited data

How the results depend on the processing

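Twist1, Snai1 and Snai2 stayed lower and Zeb1 higher under all 7 alternatives, with log2 ratios of -1.41 to -0.96, -0.84 to -0.40, -0.64 to -0.20 and 0.20 to 0.65. With centring on valve mesenchyme markers (a shift of -0.44 in place of -0.11), 0 members were at least 2-fold lower (0.261% of all transcripts were), Twist1 stood at -0.96 and Sox9 at -0.83. That centring turned Twist2 to 0.13, Zeb2 to 0.25, and the medians of corepressors to 0.30, Snail stability genes to 0.27 and Twist1-responsive genes to 0.27. It also placed 1 upstream signalling gene and 3 junction genes past the rule in the higher direction, where 2.57% of all transcripts then lay, and a pseudocount of 0.1 also gave 3 junction genes, beside 1.7% of all transcripts. Without centring the medians of upstream signals and mesenchymal genes turned to -0.0056 and -0.10, and with a pseudocount of 5 the mesenchymal median was -0.018. Among relatives, 2 were at least 2-fold lower with a pseudocount of 0.1, without centring and by the authors' deposited log2 fold change (1.89%, 0.979% and 1.2% of all transcripts), and 0 were lower or higher with a pseudocount of 5 (0.261% and 0.326%). Genes without cell type markers, an alternative chosen after seeing the data, gave a mesenchymal median of 0.18. Apart from the changed centring and pseudocounts themselves, the cause was not tested. A filter of 5 nFPKM removes Twist2. With 1 merged value per genotype no replicate could be left out. No paired analysis was possible because the deposited values merge the libraries. Unknown depth limits Twist2 and Snai3 most, since they had the lowest WT levels of the genes in the plot of levels.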

Other observations

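Genes that lie next to the members on the chromosome were looked up after the other values were known, as gene order in RefSeq (GRCm38.p6) without coordinates. Hdac9, a histone deacetylase gene next to Twist1, stood at 30.7 nFPKM in WT and 38.3 nFPKM in cKO, a relative log2 ratio of 0.42, where Twist1 had -1.30. Rnf114 and Ube2v1, on either side of Snai1, had 0.22 and 0.00, and Hdac4, next to Twist2, had -0.08. Efcab1, next to Snai2, stood at 3.87 nFPKM in WT and 1.94 nFPKM in cKO, a relative log2 ratio of -0.62 beside the -0.53 of Snai2. Zfp438 and Arhgap12, which flank Zeb1 (0.31), had 0.50 and 0.18. Gtdc1 and Acvr2a, which flank Zeb2, had 0.32 and -0.03.

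Zeb2os, the transcript from the strand opposite to Zeb2, stood at 5.25 nFPKM in WT and 2.96 nFPKM in cKO, a relative log2 ratio of -0.55 beside the -0.08 of Zeb2. Without known strandedness, reads of this pair cannot be assigned with certainty where the transcripts overlap.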
